A study of Mus musculus with 6 samples.

Results

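The transcripts of 40 receptor tyrosine kinases were followed in B16 mouse melanoma cells with and without a guide against the IFN-γ receptor gene Ifngr1. The 40 genes were chosen by name, with earlier results of these data known. Each was found among the 55335 genes of the count tables through its Ensembl identifier in GENCODE M21. The questions were which of these receptors are transcribed in the cells and which differ between scrambled control and IFNγR1KO cells. Of the 40 receptors, 20 were expressed, taken here as at least 1 CPM in all 3 libraries of at least 1 group. These same 20 passed the filter on low counts and were tested, and 9 of them differed between the groups, 3 higher and 6 lower in IFNγR1KO cells.

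Receptor tyrosine kinases are membrane proteins that bind a ligand outside the cell and, once paired or clustered, phosphorylate tyrosines on their own tails and on other proteins. Adaptors dock on these phosphotyrosines and start RAS-MAPK and PI3K-Akt signaling, and ubiquitin ligases and phosphatases end the signal. In the melanocyte lineage KIT supports the survival and migration of pigment cells, MET responds to hepatocyte growth factor, and ERBB3, AXL and several Eph receptors are widely studied in melanoma.

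B16-BL6 is a mouse melanoma line. Both groups were made by lentiviral CRISPR-Cas9 and carry a Cas9 and guide vector. Scrambled control cells, whose genotype the labels give as WT, carry a guide against GFP. IFNγR1KO cells carry a guide against Ifngr1. Per the study's methods the lines were derived as single clones, and which clone was sequenced is not given in the sources used here, so the knockout and the clone cannot be told apart. Each group has 3 libraries, numbered 1, 2 and 3 for scrambled control and 10, 11 and 12 for IFNγR1KO, from cultures seeded overnight in triplicate before RNA extraction, and p-values therefore measure the spread between cultures. Libraries held 9402640 to 10579788 counts on genes in scrambled control and 6698956 to 7409479 in IFNγR1KO. A single count equals 0.0966 to 0.109 CPM in the first group and 0.135 to 0.142 CPM in the second, where CPM is the count scaled to library size with TMM factors. Ifngr1 itself (chromosome 10 of GRCm38, 19591949 to 19610229) had 154, 144 and 172 counts in scrambled control and 80, 85 and 82 in IFNγR1KO libraries, a log2 fold change of -0.47 (SE 0.16, adjusted p = 0.0729 by the quasi-likelihood test of edgeR). The transcript was counted in every IFNγR1KO library, and counts do not show whether it still encodes a receptor.

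The label of the cells was checked against markers. All 8 melanocyte markers (Mlana, Pmel, Dct, Tyrp1, Tyr, Mitf, Sox10 and Slc45a2) were expressed. Their summed level was 32941 to 35876 CPM in scrambled control and 28795 to 33685 CPM in IFNγR1KO libraries. Of the 8, 0 passed the test, against 15.3% of all tested genes. The estimate was lower in IFNγR1KO cells for 7 and higher for 1, with a median log2 fold change of -0.16. For 4 of them the library values of the groups did not overlap, against 32.6% of all tested genes. Endothelial markers summed to 0.796 to 1.35 CPM and 0.813 to 1.99 CPM in the same order, with Cdh5 and Emcn at 0 counts in every library. Leukocyte markers summed to 4.93 to 7.16 CPM and 2.95 to 5.11 CPM, with Adgre1, Cd14 and Csf3r at 0. Of the other 2, Ptprc and Lyz2, 1 was expressed and tested (log2 fold change -0.60), and it did not pass the test. The epithelial list summed to 1.09 CPM or less. The mast cell list, which bears on Kit, summed to 0.284 CPM or less. Of 5 fibroblast markers, 2 were tested, Col1a1 and Col1a2. Both passed, where 15.3% of all tested genes did, and these are given beside the collagen receptors below. In bulk RNA, fewer cells of a type and less RNA per cell cannot be told apart.

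Levels were compared between genes as RPKM, that is CPM per kilobase of exonic sequence. Met, the receptor of hepatocyte growth factor, stood first with a mean of 42.0 RPKM over the 6 libraries. It was followed by Ddr1 with 27.6 RPKM and Ddr2 with 22.0 RPKM, the collagen-binding discoidin domain receptors, and by Ryk with 20.0 RPKM, a Wnt-binding receptor with a catalytically inactive kinase domain. These 4 were the receptors above 10 RPKM in every library. Together they made up 73.3% to 73.6% of the summed RPKM of the 40 receptors in scrambled control and 70.4% to 72.4% in IFNγR1KO libraries.

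A middle group followed. Epha3, an ephrin-A receptor, had a mean of 6.48 RPKM, Ephb4, the ephrin-B2 receptor, 6.35 RPKM and Erbb3, a neuregulin receptor with a weak kinase, 6.28 RPKM. Axl, a receptor of GAS6, had 5.00 RPKM, Pdgfrb 3.54 RPKM, Kit, the receptor of stem cell factor, 3.17 RPKM, Erbb2 2.65 RPKM and Tyro3 2.37 RPKM. Some neighbours in this order, such as Epha3 and Ephb4, overlapped in their library values within each group and were not separated. Pdgfrb and Kit were apart within each group, but in opposite order in scrambled control and IFNγR1KO cells. Epha4, Mertk and Csf1r had means of 1.63, 1.36 and 1.33 RPKM. Fgfr3 (0.656 RPKM), Ephb2 (0.483 RPKM), Epha2 (0.402 RPKM), Pdgfra (0.284 RPKM) and Fgfr1 (0.213 RPKM) closed the list of expressed receptors.

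**Figure D1:**
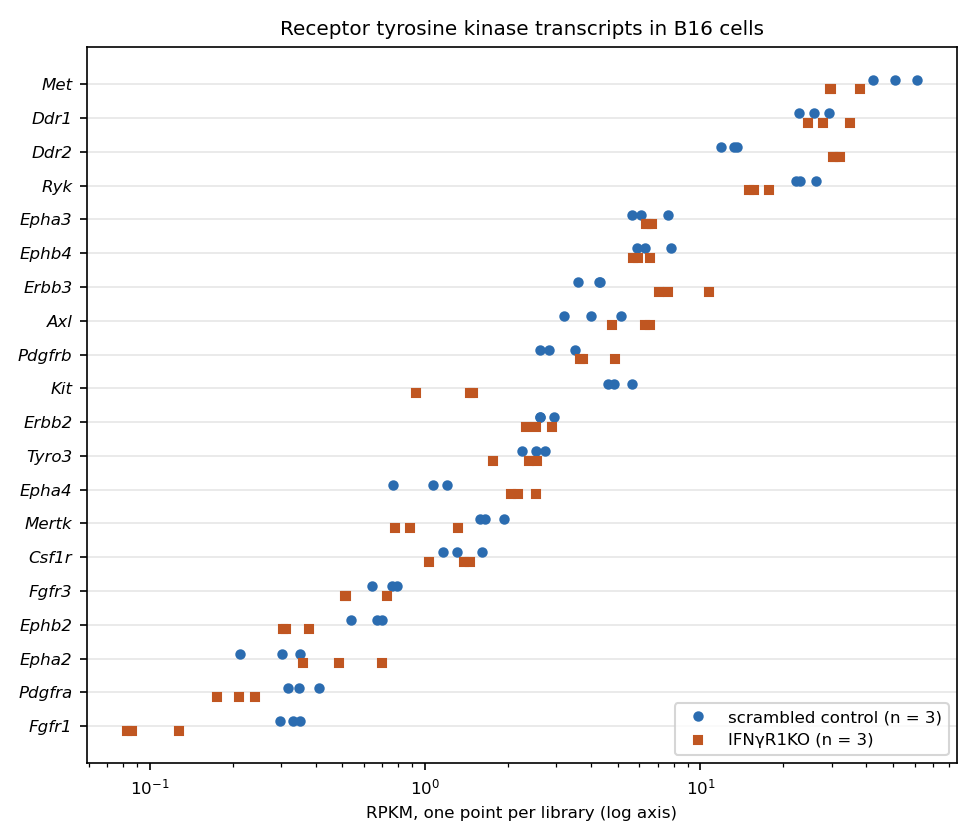
RPKM (horizontal log axis) of the 20 expressed receptors, ordered by mean level, with 1 point per library, circles for 3 scrambled control and squares for 3 IFNγR1KO libraries. Levels run from 0.0823 RPKM for Fgfr1 to 61.4 RPKM for Met, and the groups stand apart most widely for Kit, Fgfr1 and Ddr2.

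The other 20 receptors were not expressed by this measure. For 9 of them, namely Egfr and Erbb4 of the epidermal growth factor receptor family, the VEGF receptor Kdr, the angiopoietin receptor Tek and its partner Tie1, the neurotrophin receptor Ntrk2, the Wnt receptors Ror1 and Ror2, and Alk, 0 counts were found in all 6 libraries. The floor of 3 counts allows up to 0.290 to 0.326 CPM for such a gene in scrambled control and 0.406 to 0.426 CPM in IFNγR1KO libraries, for counting error only. Epha5, Fgfr2, Flt1, Mst1r, Ptk7 and Ret had counts but never more than 3 in a library. Epha7, Ephb3, Fgfr4 and Ntrk3 reached at most 12 counts in a library and overlapped between the groups. Flt4, the receptor of VEGF-C, had 10, 9 and 18 counts in scrambled control and 0, 1 and 1 in IFNγR1KO libraries. Flt4 was at least 2.97-fold lower in IFNγR1KO cells, with the floor of 3 counts per library taken as its level there. It did not pass edgeR's filter on low counts, and DESeq2, which kept it, gave an adjusted p of 0.0252.

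The groups were then compared by the quasi-likelihood test of edgeR, with p-values adjusted by the Benjamini-Hochberg method over the 13642 genes that passed the filter. Kit and Fgfr1 were lower in IFNγR1KO cells by more than 1 on the log2 scale, and Ddr2, Epha4 and Erbb3 were higher by more than 1. Met, Ryk, Ephb2 and Mertk were lower by less. An adjusted p under 0.05 was thus reached by 9 of the 20 tested receptors, where 15.3% of all tested genes reached it. By direction, 3 receptors were higher, against 7.73% of all genes, and 6 were lower, against 7.62%. These counts moved with single libraries, to 3 higher and 3 lower without IFNγR1KO 10, 3 higher and 4 lower without IFNγR1KO 11, and 5 higher and 4 lower without scrambled control 3. With the study's thresholds for a differentially expressed gene (DEG), which add a log2 fold change beyond 1 in either direction, there were 5 receptors, against 5.20% of all genes; 3 were higher (3.25% of all genes) and 2 lower (1.96%). For 12 of the 20 receptors the library values of the groups did not overlap, against 32.6% of all tested genes. The median log2 fold change was -0.11 over the tested receptors, with a range of -1.96 to 1.27, and -0.00 over all tested genes. All 5 receptor DEGs kept an adjusted p under 0.05 whichever of the 6 libraries was left out, but not all stayed beyond a log2 fold change of 1. Erbb3 was at 0.98 without scrambled control 2 and 0.85 without IFNγR1KO 12, and Epha4 was at 0.99 without scrambled control 2, so that 1 receptor was a higher DEG without scrambled control 2 and 2 without IFNγR1KO 12. The lower DEGs numbered 3 without scrambled control 2 or IFNγR1KO 10 and 4 without IFNγR1KO 11 or 12.

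**Figure D2:**
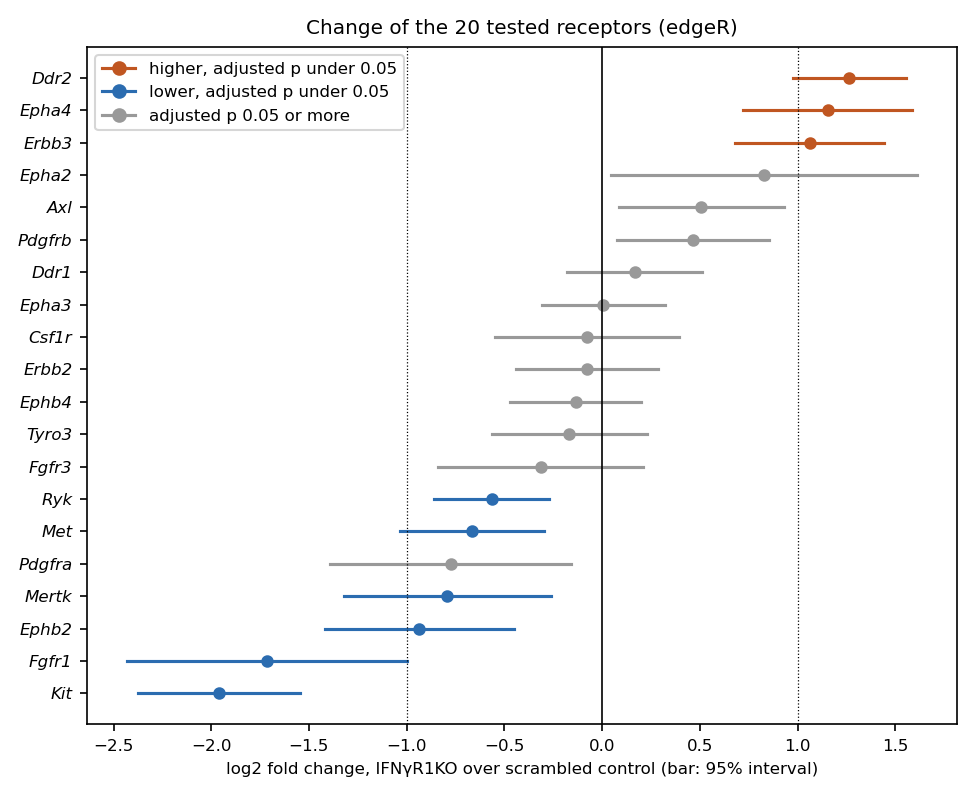
Log2 fold change (horizontal axis, IFNγR1KO over scrambled control) of the 20 tested receptors with 95% intervals as bars; the solid line is at 0 and the dotted lines at 1 and -1. The estimates run from -1.96 for Kit to 1.27 for Ddr2, with 3 receptors higher and 6 lower at an adjusted p under 0.05.

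Kit (ENSMUSG00000005672.12, chromosome 5, 75574916 to 75656722, plus strand) had the largest change of any tested receptor. Its level was 43.2, 41.2 and 50.4 CPM in scrambled control and 8.24, 13.0 and 13.4 CPM in IFNγR1KO libraries. Every IFNγR1KO library lay well under every scrambled control library. The means were 44.9 ± 4.87 CPM (SD, n = 3) and 11.5 ± 2.86 CPM (SD, n = 3), a 3.89-fold lower level in IFNγR1KO cells (log2 fold change -1.96, SE 0.19, 95% interval -2.37 to -1.55, adjusted p = 4.8e-05 by edgeR). Among the 40 receptors ordered by RPKM, Kit went from rank 7 in scrambled control to rank 13 in IFNγR1KO cells. Its ligand Kitl was counted 0 to 2 times per library. RefSeq's promoter window of Kit, from 250 bases before the start to 50 after it, is shown because Kit changed most; it lies at chr5:75574737-75575036 of GRCm38.p6 on the plus strand, in CpG-rich sequence with 69% G and C and 20 CG pairs.
Kit: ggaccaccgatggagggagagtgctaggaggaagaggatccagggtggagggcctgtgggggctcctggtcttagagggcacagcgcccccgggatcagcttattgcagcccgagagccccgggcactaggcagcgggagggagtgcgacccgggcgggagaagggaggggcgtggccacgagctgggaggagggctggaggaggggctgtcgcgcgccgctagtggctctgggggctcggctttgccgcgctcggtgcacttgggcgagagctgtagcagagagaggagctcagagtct
Kit has a second annotated start within this window. Promoters of the members were searched on both strands for CATGTG and CACGTG (E-boxes, both forms that MITF can bind), TGANTCA (AP-1) and TGATGNAA (the element that ATF4 binds). None of these was found in the window of Kit, which says only that the letters are not there.

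Among the 40 receptors, those most like Kit in sequence are the other members of its class. Pdgfrb had 15.4, 14.3 and 19.1 CPM in scrambled control and 20.6, 20.0 and 26.9 CPM in IFNγR1KO libraries. The groups did not overlap, but the difference of 0.46 on the log2 scale (SE 0.18) did not pass the test over all genes (adjusted p = 0.103), and it passed only in the fit without scrambled control 3 (adjusted p = 0.0488). Pdgfra averaged 3.60 ± 0.482 CPM (SD, n = 3) across scrambled control and 2.09 ± 0.327 CPM (SD, n = 3) across IFNγR1KO libraries, again without overlap and without passing the test (log2 fold change -0.77, adjusted p = 0.0866). Csf1r, the receptor of macrophage colony-stimulating factor, was at 7.86 ± 1.30 CPM (SD, n = 3) and 7.46 ± 1.31 CPM (SD, n = 3) with a 95% interval of the log2 difference from -0.55 to 0.39, and 15.1% of its exonic bases lie under Hmgxb3 on the other strand, whose reads the counting may have shared. The ratio of Kit to Pdgfrb in RPKM was 1.62 to 1.77 in scrambled control and 0.246 to 0.399 in IFNγR1KO libraries, so the more abundant of the pair was Kit in every scrambled control library and Pdgfrb in every IFNγR1KO library.

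Ddr2 (ENSMUSG00000026674.9, chromosome 1, 169972307 to 170110762, minus strand), a receptor activated by fibrillar collagen, had the largest increase. It was at 126, 110 and 123 CPM in scrambled control and at 297, 281 and 285 CPM in IFNγR1KO libraries. The libraries of each group lay close together and the groups far apart. The means were 120 ± 8.75 CPM (SD, n = 3) and 288 ± 8.11 CPM (SD, n = 3), a 2.40-fold higher level in IFNγR1KO cells (log2 fold change 1.27, SE 0.13, adjusted p = 8.1e-05 by edgeR). Ddr1, which binds collagens including type IV, was at 109, 124 and 140 CPM in scrambled control and at 117, 134 and 167 CPM in IFNγR1KO libraries. These values overlap, and the 95% interval of its log2 difference ran from -0.18 to 0.51 (adjusted p = 0.547). Per length, the ratio of Ddr2 to Ddr1 was 0.503 ± 0.0825 (SD, n = 3) in scrambled control and 1.09 ± 0.212 (SD, n = 3) in IFNγR1KO cells.

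Collagen transcripts stood beside this. Col1a2 was at 69.5, 54.6 and 52.5 CPM in scrambled control and 122, 124 and 125 CPM in IFNγR1KO libraries (log2 fold change 1.07, adjusted p = 0.00048). Col1a1 rose by 1.96 on the log2 scale from a low level of 1.06 to 1.74 CPM. Col1a1 passed the filter on low counts only through IFNγR1KO libraries, the group in which it was higher. Both are chains of type I collagen, a ligand of DDR2, and both are also fibroblast markers; the 5 fibroblast markers summed to 53.5 to 71.3 CPM in scrambled control and 126 to 131 CPM in IFNγR1KO libraries. Of the others on that list, Lum had 0 counts in every library, Dcn at most 1 and Col3a1 at most 3. The part of fibroblast-type transcripts in the rise of Ddr2 was not tested. RefSeq's promoter window of Ddr2 is shown for contrast with that of Kit: it lies at chr1:170088895-170089194 of GRCm38.p6 on the minus strand, holds 39% G and C and 2 CG pairs, lies inside the GENCODE span of the gene rather than at its outer end, and has none of these motifs.
Ddr2: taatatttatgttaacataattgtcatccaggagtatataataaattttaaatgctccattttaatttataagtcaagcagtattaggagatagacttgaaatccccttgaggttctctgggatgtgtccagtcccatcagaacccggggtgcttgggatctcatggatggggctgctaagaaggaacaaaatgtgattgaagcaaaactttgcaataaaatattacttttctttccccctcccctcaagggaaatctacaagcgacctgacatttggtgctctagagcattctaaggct

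Met (ENSMUSG00000009376.15, chromosome 6, 17463800 to 17573980, plus strand) was the most abundant receptor in both groups by mean RPKM. Its level was 391, 324 and 472 CPM in scrambled control and 230, 228 and 291 CPM in IFNγR1KO libraries. All IFNγR1KO values were lower, with a gap that is small beside the spread of the scrambled control libraries. The means were 396 ± 74.0 CPM (SD, n = 3) and 249 ± 35.8 CPM (SD, n = 3), a 1.59-fold lower level (log2 fold change -0.67, SE 0.17, adjusted p = 0.0202 by edgeR). The call rested on single libraries: the adjusted p was 0.0520 without scrambled control 3, 0.0913 without IFNγR1KO 10 and 0.121 without IFNγR1KO 11, while the estimates in these fits lay between -0.52 and -0.61. The share of Met in the summed receptor RPKM was 30.3% to 34.6% in scrambled control and 20.1% to 22.2% in IFNγR1KO libraries. The RPKM of Met was 3.57 to 4.63 times that of Ddr2 in scrambled control and 0.934 to 1.23 times in IFNγR1KO libraries. Hgf, the gene of its ligand, had 0 counts in all 6 libraries, and the related receptor Mst1r had at most 2.

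**Figure D3:**
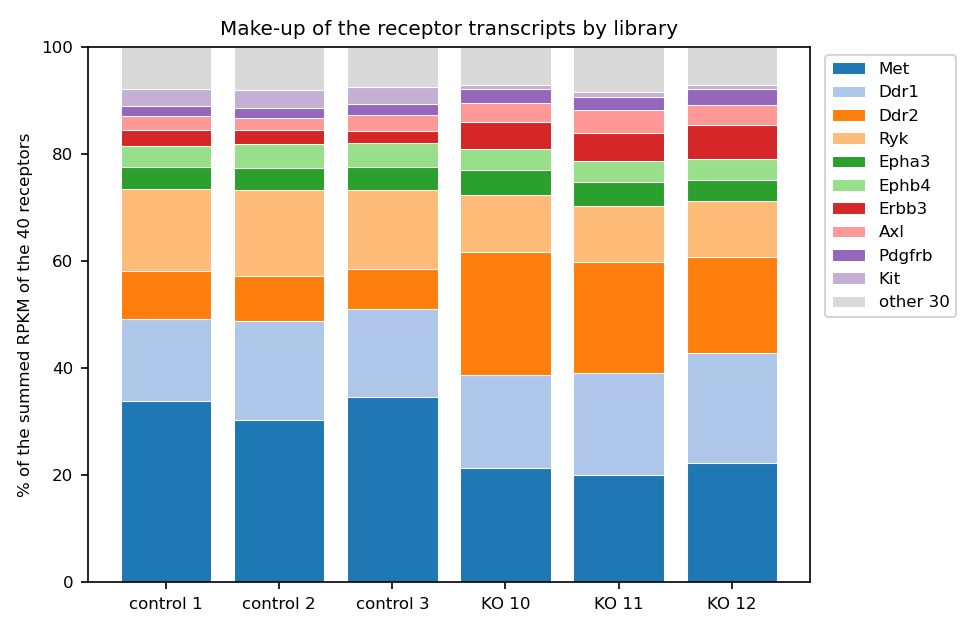
Share of the summed RPKM of the 40 receptors (vertical axis, %) in each of the 6 libraries, with the 10 most abundant receptors in color and the other 30 in gray. Met takes 30.3% to 34.6% in scrambled control and 20.1% to 22.2% in IFNγR1KO libraries, and the share of Ddr2 goes from a mean of 8.34% to 20.5%.

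Ryk (ENSMUSG00000032547.12, chromosome 9, 102834917 to 102908305, plus strand) was at 104, 101 and 120 CPM in scrambled control and at 68.2, 70.7 and 80.7 CPM in IFNγR1KO libraries. The groups did not overlap. It was lower in IFNγR1KO cells by a log2 fold change of -0.57 (SE 0.14, adjusted p = 0.0150 by edgeR), and the adjusted p was 0.0821 without IFNγR1KO 10 and 0.0956 without IFNγR1KO 11. The other receptors of Wnt signaling, Ror1, Ror2 and Ptk7, were not expressed, and the ligand gene Wnt5a had at most 1 count in a library. Met and Ryk were the called receptors whose promoter window held any of the motifs, and both windows are shown with the matches in capitals. In Met, at chr6:17463707-17464006 of GRCm38.p6 on the plus strand, CACGTG begins at position -126 from the start, and TGAGTCA, a form of TGANTCA, begins at -54. In Ryk, at chr9:102834670-102834969 on the plus strand, CACATG, which is CATGTG on the other strand, begins at -78.
Met: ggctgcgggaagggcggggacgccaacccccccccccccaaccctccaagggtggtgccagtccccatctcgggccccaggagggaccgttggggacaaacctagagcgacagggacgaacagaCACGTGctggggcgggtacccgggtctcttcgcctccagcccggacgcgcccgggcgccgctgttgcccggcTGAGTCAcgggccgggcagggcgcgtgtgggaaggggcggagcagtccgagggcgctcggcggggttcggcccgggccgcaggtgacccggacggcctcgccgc
Ryk: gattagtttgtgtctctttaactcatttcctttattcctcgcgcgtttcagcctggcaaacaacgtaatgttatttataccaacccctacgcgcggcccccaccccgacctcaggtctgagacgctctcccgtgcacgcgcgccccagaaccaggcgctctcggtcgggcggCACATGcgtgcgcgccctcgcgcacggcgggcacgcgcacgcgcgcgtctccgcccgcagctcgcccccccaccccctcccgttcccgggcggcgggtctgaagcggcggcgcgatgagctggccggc
A promoter entry was found for 34 of the 40 receptors and for 7 of the 9 called ones. The motifs are common: of the 32851 promoter windows of the same length in the table, 14.15% held CATGTG, 7.15% CACGTG, 7.808% TGANTCA and 3.969% TGATGNAA. Matches were also found in windows of receptors that were not called, namely Ddr1, Ephb4, Fgfr2 and Ror2. Of these, Fgfr2 and Ror2 were not expressed. A match is a description of the sequence and not a site of binding.

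Erbb3 (ENSMUSG00000018166.8, chromosome 10, 128567523 to 128589652, minus strand) was at 26.1, 21.6 and 25.7 CPM in scrambled control and at 42.6, 45.9 and 64.7 CPM in IFNγR1KO libraries. IFNγR1KO 12 stood highest, and the lowest IFNγR1KO library was above the highest scrambled control library. The means were 24.4 ± 2.48 CPM (SD, n = 3) and 51.1 ± 11.9 CPM (SD, n = 3), a 2.09-fold higher level in IFNγR1KO cells (log2 fold change 1.06, SE 0.18, adjusted p = 0.0018 by edgeR). Erbb2, the partner with which ERBB3 signals, had 125, 137 and 159 counts in scrambled control and 85, 111 and 94 in IFNγR1KO libraries. Scaled to depth these are 14.2 ± 1.02 CPM (SD, n = 3) and 13.4 ± 1.49 CPM (SD, n = 3), and the groups overlap. Its 95% interval was -0.44 to 0.29 on the log2 scale. The RPKM ratio of Erbb3 to Erbb2 was 1.49 ± 0.151 (SD, n = 3) in scrambled control and 3.31 ± 0.827 (SD, n = 3) in IFNγR1KO cells.

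Ligands of this family were also counted. The ERBB3 and ERBB4 ligand gene Nrg1 had at most 2 counts per library, and Nrg2 had 8 to 23 (adjusted p = 0.922). Egf and Tgfa, ligands of EGFR, moved in opposite directions in cells in which Egfr itself had 0 counts. Egf was at 1.19, 0.895 and 1.55 CPM in scrambled control and 3.69, 2.57 and 3.37 CPM in IFNγR1KO libraries (log2 fold change 1.39, adjusted p = 0.0142 by edgeR; over 0.05 without scrambled control 2 and without IFNγR1KO 10), and 9.82% of its exonic bases lie under a gene on the other strand. Egf passed the filter on low counts only through IFNγR1KO libraries, the group in which it was higher. Tgfa had 26, 25 and 49 counts in scrambled control and 1, 1 and 0 in IFNγR1KO libraries. Tgfa passed the filter only through scrambled control, the group in which it was higher. It was at least 8.01-fold lower in IFNγR1KO cells, with the floor of 3 counts per library taken as its level there (adjusted p = 0.00035 by edgeR, under 0.05 in all 6 fits that left out 1 library).

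Epha4 (ENSMUSG00000026235.14, chromosome 1, 77367185 to 77515088, minus strand), which binds ephrins of both classes, was at 8.58, 6.17 and 9.66 CPM in scrambled control and at 17.5, 16.5 and 20.4 CPM in IFNγR1KO libraries. The groups were separated by more than the range within either. The means were 8.14 ± 1.79 CPM (SD, n = 3) and 18.1 ± 2.01 CPM (SD, n = 3), a 2.23-fold higher level in IFNγR1KO cells (log2 fold change of 1.15, SE 0.20, adjusted p = 0.0023 by edgeR). Ephb2 (ENSMUSG00000028664.14, chromosome 4, 136647539 to 136835988, minus strand), an ephrin-B receptor, was at 8.47, 6.77 and 8.79 CPM in scrambled control and 3.84, 3.93 and 4.78 CPM in IFNγR1KO libraries. The groups did not overlap. Its log2 fold change was -0.94 (SE 0.22, adjusted p = 0.0145 by edgeR), and the adjusted p was 0.0653 without IFNγR1KO 10 and 0.0754 without IFNγR1KO 11.

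The 2 most abundant Eph receptors gave no such difference. Epha3 was at 53.0, 49.1 and 66.5 CPM in scrambled control and 56.3, 55.0 and 57.9 CPM in IFNγR1KO libraries, with a log2 difference of 0.01 (95% interval -0.31 to 0.32), whose sign turned under several alternatives. Ephb4 was at 27.2, 29.2 and 36.1 CPM in scrambled control and 26.4, 27.5 and 30.4 CPM in IFNγR1KO libraries (95% interval of the log2 difference -0.47 to 0.20). Epha2 was at 1.35 ± 0.328 CPM (SD, n = 3) and 2.40 ± 0.790 CPM (SD, n = 3), without overlap and with an adjusted p of 0.149. Among ephrins, Efna1 was higher in IFNγR1KO cells, from 9, 5 and 3 counts to 15, 17 and 10 (log2 fold change 1.73, adjusted p = 0.0239 by edgeR). Its call was lost without scrambled control 2 or 3, without IFNγR1KO 10 or 11, and with DESeq2. Efna1 passed the filter on low counts only through IFNγR1KO libraries, the group in which it was higher. Efna5 was lower, from 15.2, 12.4 and 20.9 CPM to 7.96, 8.13 and 10.7 CPM (log2 fold change -0.86, adjusted p = 0.0222 by edgeR; over 0.05 without scrambled control 3, without IFNγR1KO 10 and without IFNγR1KO 11). Efnb2, the main ligand of EPHB4, had at most 1 count in a library.

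The TAM receptors AXL, TYRO3 and MERTK bind GAS6, and TYRO3 and MERTK also bind protein S. Mertk (ENSMUSG00000014361.5, chromosome 2, 128698956 to 128802894, plus strand) was at 6.84, 7.16 and 8.41 CPM in scrambled control and at 3.84, 5.69 and 3.37 CPM in IFNγR1KO libraries. The groups did not overlap, and IFNγR1KO 11 was nearest to the scrambled control libraries. Its log2 fold change was -0.79 (SE 0.24, adjusted p = 0.0455 by edgeR). This was the least firm of the 9 calls: it stayed only in the fit without IFNγR1KO 11 among the 6 that left out 1 library, where the adjusted p ran from 0.0409 to 0.157 (0.0656 without scrambled control 1, 0.102 without scrambled control 2, 0.106 without scrambled control 3, 0.157 without IFNγR1KO 10 and 0.0917 without IFNγR1KO 12), and it was 0.0740 with DESeq2. Axl was at 20.2, 16.1 and 26.0 CPM in scrambled control and 24.0, 31.7 and 32.9 CPM in IFNγR1KO libraries. These values overlap through scrambled control 3, and the log2 difference of 0.51 did not pass the test (adjusted p = 0.1005; 0.0194 without scrambled control 3). Tyro3 was at 13.9, 15.7 and 16.9 CPM and 10.9, 14.8 and 15.7 CPM, with a 95% interval of -0.57 to 0.23. The RPKM ratio of Axl to Mertk was 1.94 to 2.66 in scrambled control and 4.80 to 8.40 in IFNγR1KO libraries. Of the ligands, Pros1 had 134 to 254 counts per library (adjusted p = 0.920) and Gas6 at most 6.

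Fgfr1 (ENSMUSG00000031565.18, chromosome 8, 25513654 to 25575718, plus strand) had the lowest mean RPKM of the expressed receptors over all 6 libraries; within scrambled control alone Epha2 was lower. It had 27, 33 and 36 counts in scrambled control and 6, 6 and 9 in IFNγR1KO libraries, or 2.93, 3.28 and 3.48 CPM and 0.852, 0.813 and 1.27 CPM. All IFNγR1KO values were under all scrambled control values. The level was 3.28-fold lower in IFNγR1KO cells (log2 fold change -1.72, SE 0.33, adjusted p = 0.0046 by edgeR), and the counts behind it are few. Fgfr1 met the expression limit of 1 CPM, and passed the filter on low counts, only through scrambled control, the group in which it was higher. Fgfr3 averaged 5.21 ± 0.562 CPM (SD, n = 3) across scrambled control and 4.18 ± 0.881 CPM (SD, n = 3) across IFNγR1KO libraries (95% interval of the log2 difference -0.84 to 0.21), and 13.9% of its exonic bases lie under a gene on the other strand. Fgfr2 and Fgfr4 were not expressed. The FGF receptor ligand Fgf1 was lower, at 23.6, 28.8 and 29.4 CPM in scrambled control and 16.9, 16.4 and 18.1 CPM in IFNγR1KO libraries (log2 fold change -0.67, adjusted p = 0.0127 by edgeR; over 0.05 without scrambled control 2, without IFNγR1KO 10 and without IFNγR1KO 11). Fgf21, an endocrine ligand that needs the co-receptor KLB, had 0 counts in every scrambled control library and 14, 9 and 7 in the IFNγR1KO libraries, and did not pass the filter. Klb had at most 1 count in a library.

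**Figure D4:**
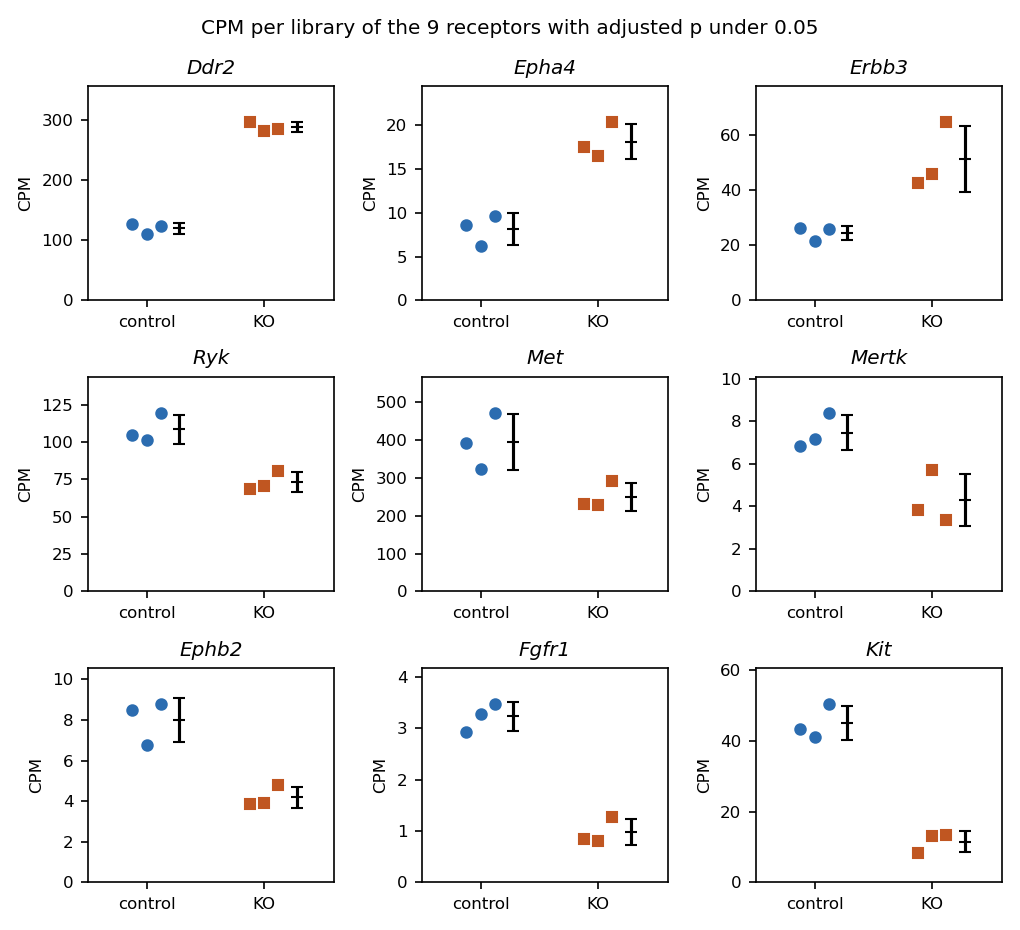
CPM (vertical axes, starting at 0) of the 9 receptors with an adjusted p under 0.05, with 1 point per library and the mean ± SD of 3 libraries as a bar beside them. Ddr2, Epha4 and Erbb3 are higher and Ryk, Met, Mertk, Ephb2, Fgfr1 and Kit lower in IFNγR1KO cells, and the groups do not overlap in any of the 9 panels.

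VEGF ligands were abundant although Flt1, Kdr and Flt4 were not expressed. Vegfa was at 71.9, 68.8 and 54.4 CPM in scrambled control and 134, 132 and 116 CPM in IFNγR1KO libraries (log2 fold change 0.97, SE 0.15, adjusted p = 0.0011 by edgeR). The groups were clearly apart, and the call held in all 6 fits that left out 1 library. Vegfb and Vegfc did not pass the test (adjusted p = 0.143 and 0.986).

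The wider pathway was then counted. Of 60 ligand genes, 22 were tested, and 3 were higher (Vegfa, Egf, Efna1) and 3 lower (Tgfa, Fgf1, Efna5), where 7.73% of all tested genes were higher and 7.62% lower. Egf, Efna1 and Tgfa passed the filter on low counts only through the group in which each was higher. The median log2 fold change of the tested ligands was -0.04, and it was the same with Tgfa set at its bound. Of 18 further receptor tyrosine kinases, 6 were tested and 2 were higher, against 7.73% of all tested genes; Epha1 was higher by 1.24 (adjusted p = 0.0164 by edgeR; over 0.05 without scrambled control 2, without IFNγR1KO 11 and with thinning to the smallest total) and Ephb6, which lacks kinase activity, by 0.61 (adjusted p = 0.0404, lost without scrambled control 1 or 2, without IFNγR1KO 11 or 12, with DESeq2 and with thinning). The insulin receptor Insr and Igf1r did not pass the test (adjusted p = 0.204 and 0.835).

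Co-receptors are membrane proteins that present ligands to these receptors. Of 15, 9 were tested, and 3 were lower, against 7.62% of all tested genes, and 0 higher, against 7.73%. All 9 estimates were below 0, with a median log2 fold change of -0.46, beside -0.00 over all tested genes. The list was chosen with earlier results of these data known. The shared direction is therefore a description of these genes and not a test of co-receptors as a class. Sdc3, a heparan sulfate syndecan, was at 62.5, 65.2 and 83.3 CPM in scrambled control and 15.2, 21.8 and 23.3 CPM in IFNγR1KO libraries (log2 fold change -1.80, SE 0.18, adjusted p = 6.7e-05 by edgeR). Sdc1 was at 81.5, 79.3 and 92.1 CPM and 39.2, 48.6 and 42.3 CPM (log2 fold change -0.96, adjusted p = 0.00085). Both syndecans separated the groups without overlap, and both calls held in all 6 fits that left out 1 library. Fgfrl1, an FGF-binding receptor without a kinase domain, was lower by a log2 fold change of -0.46 (adjusted p = 0.0400), a call that was lost in every one of these 6 fits.

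Genes next to the receptors were counted last. Of 37 adaptors and kinases that dock on receptors, 32 were tested, with 3 higher and 2 lower and a median log2 fold change of -0.05. These 5 of 32 are close to the 15.3% called among all tested genes. The SRC family kinase Fyn was higher by 0.70 (adjusted p = 0.0041 by edgeR, held in all 6 fits), at 32.3, 35.8 and 33.8 CPM in scrambled control and 50.6, 56.8 and 58.3 CPM in IFNγR1KO libraries. The SHC family adaptor Shc4 was higher by 0.50 (adjusted p = 0.0181) and the MET-binding scaffold Gab1 by 0.68 (adjusted p = 0.0336), and the calls held in 3 and 1 of the 6 fits. Dok1, which dampens signaling, had a log2 fold change of -0.48 (adjusted p = 0.0319, 3 of 6 fits) and Plcg2 of -0.68 (adjusted p = 0.0465, 2 of 6 fits). Of 19 genes that attenuate or sort receptors, 18 were tested and 1 was higher, the endosomal sorting gene Stam, by 0.53 (adjusted p = 0.0192, 3 of 6 fits), with a median of 0.15; among all tested genes 7.73% were higher. The calls of Shc4, Gab1, Dok1, Plcg2 and Stam were lost without scrambled control 2, without IFNγR1KO 10 and without IFNγR1KO 11. That of Gab1 was lost also without scrambled control 1 or IFNγR1KO 12, and that of Plcg2 also without scrambled control 3 and with limma-voom. Without scaling factors the calls of Dok1 and Plcg2 were lost as well, and with thinning to the smallest total that of Dok1.

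**Figure D5:**
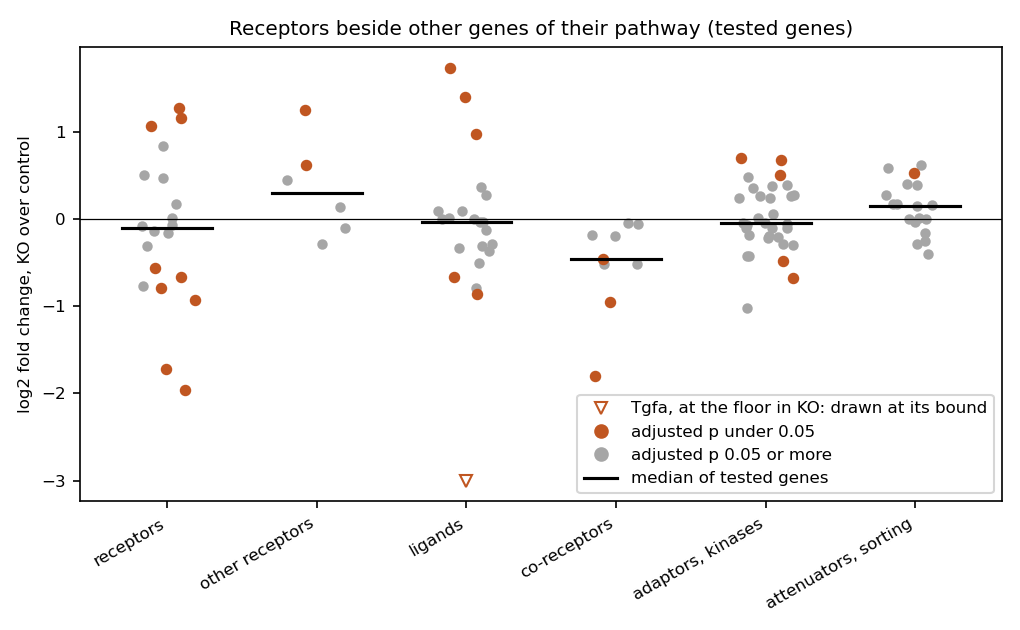
Log2 fold change (vertical axis, IFNγR1KO over scrambled control) of the tested genes of 6 lists, with filled colored points at an adjusted p under 0.05, gray points otherwise and a line at each median; Tgfa is an open triangle at its bound. The medians are -0.11 for the receptors, 0.29 for the 6 other receptors, -0.04 for ligands, -0.46 for co-receptors, -0.05 for adaptors and kinases and 0.15 for attenuators and sorting genes.

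Of the 40 receptors, 11 are also named in the kinase results of the study (Epha3, Epha5, Epha7, Ephb2, Ephb3, Ephb4, Pdgfrb, Kit, Fgfr4, Tyro3 and Ryk). From peptide arrays the study infers that the kinases it lists are more active in IFNγR1KO cells. By Western blot it reports no significant increase of phosphorylated EPHA3. The list was chosen by the study on these cells and is not independent evidence of a direction. Epha5, Epha7, Ephb3 and Fgfr4 were not expressed. Of the 7 tested, 3 were lower (Kit, Ephb2 and Ryk), against 7.62% of all tested genes, 0 were higher, against 7.73%, and the median log2 fold change was -0.17. The calls of Ephb2 and Ryk were lost without IFNγR1KO 10 and without IFNγR1KO 11. Epha1, which the study's kinase results also name, is not among the 40 receptors. It was higher in IFNγR1KO cells (log2 fold change 1.24, adjusted p = 0.0164 by edgeR). Its call was lost without scrambled control 2, without IFNγR1KO 11 and with thinning to the smallest total. Transcript counts do not measure the phosphorylation of these proteins.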

How the data were processed

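RNA of 3 scrambled control and 3 IFNγR1KO cultures was sequenced as paired-end, poly(A)-selected libraries. Per the study's methods and the submitters' processing notes, the authors aligned reads to GRCm38 (mm10) with STAR 2.7.5a and counted them per gene with HTSeq 0.11.2. The deposited values are raw counts, not normalized, in 1 table per library. Annotation release and strand setting are not given in the sources used here, so reads of overlapping genes on opposite strands cannot be told apart. Of the reads in each table, 46.9% to 47.7% lay on no gene, 1.57% to 1.85% were ambiguous and 3.76% to 4.61% did not align uniquely. These were left out, and 46.0% to 47.0% were counted on genes.

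Symbols, positions and exonic lengths came from GENCODE M21, which holds 55154 of 55335 identifiers. In R 4.3.3 with edgeR 4.0.16, filterByExpr (minimum count 10, minimum total 15) kept 13642 genes. TMM scaling followed, and the quasi-likelihood test, with p-values adjusted over all of them by the Benjamini-Hochberg method. The study's own test was the Wald test of DESeq2 1.34.0. RPKM is TMM-scaled CPM per exonic kilobase. A group whose libraries all held 3 counts or fewer for a gene was set at the floor; floors cover counting error only. Alternatives were DESeq2 1.42.0, limma-voom (limma 3.58.1), other scaling factors, filters and expression limits, thinning to the smallest total, and leaving out each library. The tests were checked on simulated counts. Promoter windows came from RefSeq (GRCm38.p6).

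The members and lists were chosen with earlier results of these data known. Values in every library are given for receptors with an adjusted p under 0.05 and for the 12 with the highest mean RPKM, and list genes are named by the smallest adjusted p, up to 3 per list and direction, beside ligands of named receptors. Flt4, Klb and the other genes given by counts of reads alone were added to account for each member or its ligand.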

Additional observations from a re-analysis of the deposited data

How the results depend on the processing

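No paired analysis was possible because the replicate numbers 1 to 3 and 10 to 12 share none. The number of called receptors was 9 with DESeq2, limma-voom, RLE factors and the stricter filter, 8 without scaling factors and with thinning, and 10 without a filter; DESeq2 dropped Mertk and added Flt4. Over the fits that left out 1 library it ran from 6 to 9, receptor DEGs from 4 to 7, and all genes with an adjusted p under 0.05 from 1028 to 2824; the lower counts came without scrambled control 2 (1087), IFNγR1KO 10 (1095) and IFNγR1KO 11 (1028). The log2 change of Epha3 turned to -0.00773 with DESeq2 and -0.0264 without a filter, and ran from -0.0856 to 0.14 over the fits that left out 1 library; that of Csf1r ran from -0.18 to 0.0609 over these fits. Expressed receptors numbered 22 at 0.5 CPM, 19 at 2 CPM and 15 at 1 RPKM. For the named genes, 443 alternative values kept the direction and side of the threshold, 67 lost and 2 gained the call, and 7 turned in direction. The cause was not tested. With fewer counts in IFNγR1KO libraries, Fgfr1, Flt4, Tgfa and Efna1 rest on few reads.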
